A study of Homo sapiens with 2 samples.

Results

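The short unnamed loci are stretches of 500 bases or less that were assembled from the RNA-seq reads of a human liver cancer line and to which the deposited tables give no gene name. They were taken from both tables as the loci with a dash in place of a gene name, with an end minus start of 500 bases or less, and on the assembled chromosomes. There were 1173 of them among 29710 loci in the library of control PLC cells, which carry the empty vector (EV), and 735 among 29282 in that of PLC cells stably over-expressing PRSS35. PLC cells are liver cancer cells, and both lines were selected with puromycin after lentiviral transduction and grown in DMEM. The genotype is given as WT for EV and as PRSS35 over-expression for the other line, with no further treatment in either. Total RNA was made into 1 library per line, so there was no replicate, no difference below carries a p-value, and the line and its library cannot be told apart.

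An assembler such as Cufflinks joins overlapping reads into transcribed fragments. A fragment that is not assigned to an annotated gene stays unnamed, although it may lie within the span of one. Several kinds of abundant RNA have near copies scattered over the human genome, among them BC200 RNA, a short RNA polymerase III transcript of the gene BCYRN1 that arose from an Alu element and takes part in the control of translation, the ribosomal RNAs, and spliced mRNAs whose DNA copies form processed pseudogenes. Alu elements themselves derive from 7SL, the RNA of the signal recognition particle, and lie in large numbers in introns and between genes.

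FPKM is fragments scaled by mapped fragments and by a transcript length, which need not be the full length of the locus. The highest FPKM among these loci belonged, in both libraries, to a near copy of BC200 RNA at chr22:42997241-42997397 (plus strand). The other 4 near copies among the 10 pairs with the highest mean FPKM lay at chr16:67844876-67845030 (minus), chr5:88271366-88271523 (plus), chr1:48661859-48662020 (minus) and chr18:64289290-64289459 (plus) of GRCh37, the assembly to which hg19 corresponds. The annotated BCYRN1 transcript of 200 bases lies at chr2:47562454-47562653 on the plus strand.

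Between 149 and 157 bases of each of the 5 copies were identical to BC200 RNA. The part aligned to it ended between positions 149 and 162 of the transcript in the 5 copies, so none reached its 3′ end.

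A second set of loci resembled the ribosomal RNA precursor RNA45S5, from which the 18S, 5.8S and 28S rRNAs are cut. The tables place RNA45S5 on an unplaced contig and list it at 0 FPKM in both libraries. The sequences of 3 of these loci are shown because they were among the highest in both libraries, read from GRCh37 in the sense of the precursor. Capitals mark bases that differ from this precursor, in which the 5.8S rRNA takes positions 6602 to 6757 of 13357.
chr12:20704356-20704512, plus strand: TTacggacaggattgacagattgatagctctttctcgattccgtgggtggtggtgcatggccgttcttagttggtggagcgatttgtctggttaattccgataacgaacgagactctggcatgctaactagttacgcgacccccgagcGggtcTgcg
chr11:85195026-85195187, plus strand: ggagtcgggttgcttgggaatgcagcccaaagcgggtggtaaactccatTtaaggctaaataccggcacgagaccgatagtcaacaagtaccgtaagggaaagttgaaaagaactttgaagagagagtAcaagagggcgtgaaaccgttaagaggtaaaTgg
chr5:71146756-71146942, plus strand: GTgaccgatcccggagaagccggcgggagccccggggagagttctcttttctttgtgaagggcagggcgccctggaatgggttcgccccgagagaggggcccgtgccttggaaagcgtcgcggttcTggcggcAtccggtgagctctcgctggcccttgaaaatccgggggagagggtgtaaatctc

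The locus on chromosome 12 aligned to positions 4932 to 5085, ahead of the 5.8S rRNA and so on the 18S side. Those on chromosomes 11 and 5 aligned to positions 8201 to 8362 and 10510 to 10694, on the 28S side.

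A pair of further sequences show other kinds of locus, a copy of an mRNA and a tandem repeat. The first lies in EIF4HP1, a pseudogene of the translation initiation factor gene EIF4H, and capitals mark its differences from the EIF4H mRNA. In the second, capitals mark 1 unit of 29 bases, and the letters recurred at a shift of 29 over 77 bases in a row.
chr7:27498328-27498492, minus strand: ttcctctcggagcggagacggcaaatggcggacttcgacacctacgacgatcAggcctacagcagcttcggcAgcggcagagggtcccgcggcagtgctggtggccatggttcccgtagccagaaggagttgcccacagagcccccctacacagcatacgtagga
chr10:803462-803611, plus strand: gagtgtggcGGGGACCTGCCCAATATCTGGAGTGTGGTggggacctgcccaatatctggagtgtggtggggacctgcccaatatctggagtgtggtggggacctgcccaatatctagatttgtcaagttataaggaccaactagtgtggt

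The labels were checked in the named loci. PRSS35 had 0.643 FPKM in EV and 1836 in the over-expressing line. Of 9 hepatocyte markers, SERPINA1 (2528 and 4239 FPKM in EV and PRSS35), APOA1 (576 and 494) and TF (224 and 348) were high, while ALB (4.05 and 5.21), TTR (1.56 and 1.61) and FGB (0.598 and 0.540) were low in both. The estimated depth was 31456486 fragments in EV and 31540302 in PRSS35.

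The short unnamed loci made up 3.95% of all loci in EV and 2.51% in PRSS35, yet 65.1% and 44.5% of the summed FPKM. Their FPKM summed to 1606261 of 2469030 in EV and to 671361 of 1508529 in PRSS35. Named loci summed to 856880 and 831520, and unnamed loci over 500 bases to 5889 and 5649, so the short unnamed loci held 97.3% of the difference between the sums of the tables. EV had 1.60 times as many of them as PRSS35, whereas the number of longer unnamed loci was nearly equal, at 2970 and 2998.

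Most short unnamed loci had low values, and a few carried the sum. FPKM ranged from 1.43 to 570199 in EV, with a median of 8.24, and from 1.44 to 452885 in PRSS35, with a median of 7.60. None was listed at 0, and all had the status OK, but an unnamed locus is listed only where reads were assembled. The 5 highest loci held 79.3% of the summed FPKM of these loci in EV and 87.0% in PRSS35, and 3 loci in EV and 1 in PRSS35 were enough to pass 50% of it. Named loci of the same lengths were more numerous, 2193 in EV and 2210 in PRSS35, but only 43 and 50 of them were above 0, and they summed to 923 and 778 FPKM. Named loci are listed with or without reads, so their share above 0 cannot be set against that of the unnamed loci.

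The values followed locus length. Lengths ran from 150 to 500 bases in EV (median 337) and from 153 to 500 in PRSS35 (median 353), and the rank correlation of FPKM with length across loci was -0.86 and -0.83. Loci within a library share its depth and fragment size, and this correlation is a description. The 64 loci of 200 bases or less in EV held 97.6% of the summed FPKM of the short unnamed loci, and the 39 in PRSS35 held 96.7%. Without them the share of all summed FPKM was 4.22% in EV and 2.54% in PRSS35. The length limit itself divided loci of like values, since in EV the 42 loci of 491 to 500 bases had a median of 1.86 FPKM and the 38 unnamed loci of 501 to 510 bases 1.87, with 2.23 (35 loci) and 2.09 (33 loci) in PRSS35.

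Among the listed loci, the number of fragments behind each value did not follow length. The fragments implied by the deposited bounds had a median of 14.0 in both libraries, and their rank correlation with length was -0.04 in both. A low value of 9.59 recurred at short and long loci. It was found at the 150-base chr5:112848219-112848368 in EV and at the 471-base PRSS35 partner of chr1:154644094-154644536. Whether a minimum number of fragments for listing a locus set this flat relation was not tested. In all, 73.6% of the loci in EV and 70.5% in PRSS35 rested on 20 fragments or fewer, and 43 and 31 loci had more than 100. The implied fragments of all short unnamed loci came to 61945 in EV and 36569 in PRSS35, which is 0.197% and 0.116% of the estimated library. A group that took 65.1% of the summed FPKM in EV thus took less than 1% of its fragments.

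The FPKM worth of 1 fragment changed with length by several orders of magnitude. In EV it was 20988 FPKM at the 150-base locus on chromosome 10, 409 at the 157-base locus on chromosome 22, 19.5 at the 187-base locus on chromosome 5 and 0.586 at the 317-base locus over BCYRN1. In loci of 401 to 500 bases the median was 0.180 in EV and 0.187 in PRSS35. Named loci above 0 of this length had 0.183 in both, so at 401 to 500 bases the worth was not particular to loci without a name. At 200 bases or less, where a fragment was worth most, no named locus was above 0 in either library. The relation could not be compared with named loci there. Depth was fitted on unnamed loci of over 500 and under 3000 bases. In that fit, fragments per FPKM rose in proportion to length less 288 bases in EV and 292 in PRSS35. FPKM in those loci was thus not scaled by their full length. Whether the same holds at the short unnamed loci was not tested. Here FPKM is read beside the implied fragments, which cover counting error within a library only. In each library 1 locus had bounds so wide that they implied fewer than 5 fragments, and its number of fragments cannot be read from them.

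**Figure D1:**
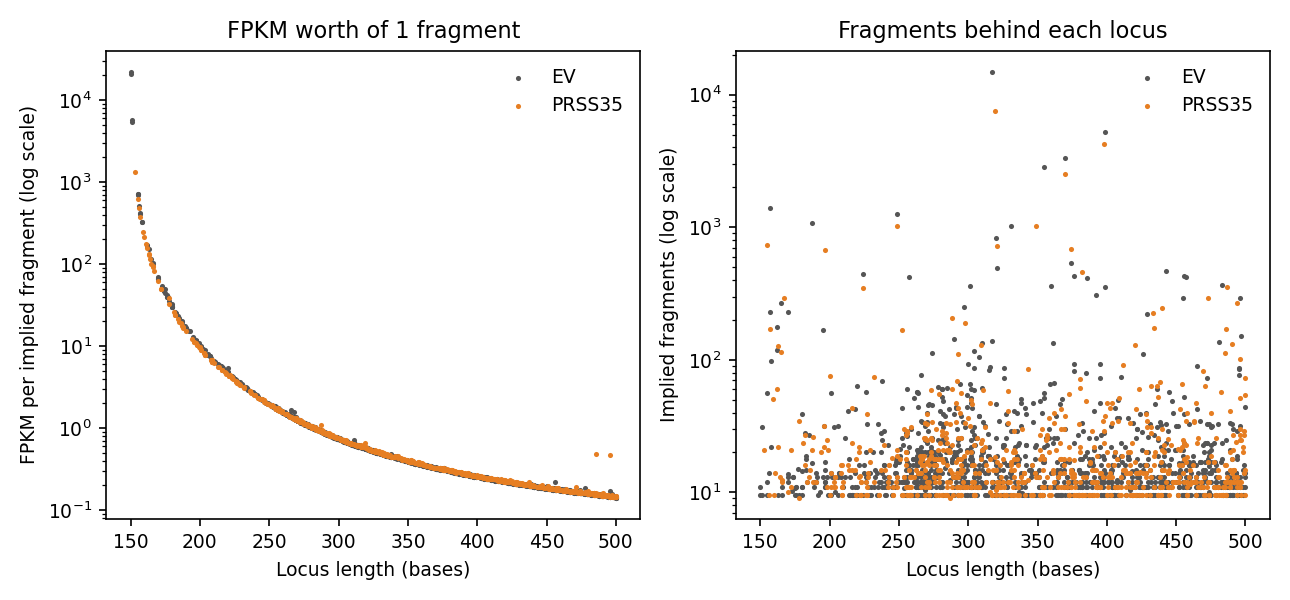
Left, FPKM per implied fragment against locus length, and right, implied fragments against locus length (log scales, lengths in bases), 1 point per locus, grey for EV and orange for PRSS35, without the 1 locus per library that had fewer than 5 implied fragments. The worth of a fragment falls along much the same curve in both libraries, while the fragments themselves, with a median of 14.0, show no such curve. Some points lie off the curve, up to 0.484 FPKM per fragment at 401 to 500 bases in PRSS35, where the median is 0.187.

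The shortest loci set much of the difference between the sums. The 4 loci of 151 bases or less were all in EV. The tandem repeat chr10:803462-803611 had 230871 FPKM (deposited bounds 91651 to 370092) from 11 implied fragments, and chr5:112848219-112848368, also outside annotated genes, had 209883 (74364 to 345402) from 9.59. The locus chr3:101295293-101295443 in RPS18P5, a pseudogene of the ribosomal protein gene RPS18, had 167395 FPKM from 31 fragments, and chr12:45584596-45584746 in the pseudogene PLEKHA8P1 had 53998 from 9.59. Together they rested on 61.2 fragments and summed to 662147 FPKM, which was 26.8% of all summed FPKM in EV and 68.9% of the difference between the tables. No short unnamed locus of PRSS35 overlapped any of them. Those on chromosomes 3 and 12 met a named locus of PRSS35, and those on chromosomes 10 and 5 met nothing there.

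The loci like BC200 RNA, the gene's own locus included, held 43.4% of the summed FPKM of the short unnamed loci in EV and 78.2% in PRSS35. The locus on chromosome 22, in an intron of POLDIP3, had 570199 FPKM (539651 to 600747) in EV and 452885 (419371 to 486399) in PRSS35, the highest value of each table among these loci, and alone made up 23.1% and 30.0% of all summed FPKM. Its implied fragments were 1394 and 730.4. PRSS35 stood at 0.794 of EV in FPKM and at 0.524 in fragments, and the locus was 157 bases long in EV and 155 in PRSS35, with 1 fragment worth 409 and 620.0 FPKM.

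The other 4 copies were also read with fewer fragments in PRSS35. The copy on chromosome 16, in an intron of TSNAXIP1, had 39565 FPKM in EV and 27683 in PRSS35, from 56.0 and 21.0 fragments, and the deposited bounds overlapped. The copy on chromosome 5, in an intron of the lncRNA gene MEF2C-AS1, had 31961 and 12350.5 FPKM from 97.1 and 50.3 fragments. The copy on chromosome 1, in an intron of a lncRNA gene, had 30470.5 and 11523 FPKM from 177 and 114 fragments. For both of these the bounds lay apart, with PRSS35 lower. On chromosome 18, outside annotated genes, FPKM was 15699.6 in EV and 16476 in PRSS35 with overlapping bounds, although the fragments were 230.5 and 126. This locus was 170 bases long in EV and 163 in PRSS35.

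The BCYRN1 gene itself was among the short unnamed loci, at chr2:47562451-47562767, and covers the 200-base transcript with 100% identity. It had 8677 FPKM (8535 to 8820) in EV and 4342 (4242 to 4443) in PRSS35, from 14801 and 7466 implied fragments, the largest number behind any short unnamed locus of either library. Its length was 317 and 319 bases, and PRSS35 stood at 0.5004 of EV in FPKM and 0.504 in fragments. The locus that the tables name BCYRN1 lies elsewhere, on chromosome X, and had 54.2 FPKM (0 to 125) in EV and 14.2 (0 to 42.7) in PRSS35. Over the 5 copies together the fragments in PRSS35 were 0.533 of EV, close to the 0.504 of the gene, while their FPKM was 0.757. Reads from near-identical sequences can be placed at any of them, so which of these places gave rise to the RNA cannot be told apart here. In RNA from a whole culture, fewer cells with an RNA and less of it per cell cannot be told apart either.

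Loci like ribosomal RNA numbered 6 in each library, at the same places, and held 8.79% of the summed FPKM of the short unnamed loci in EV and 12.5% in PRSS35. On the 18S side, the locus on chromosome 12, in an intron of PDE3A, had 95033 FPKM in EV and 62886 in PRSS35, from 227 and 169.5 fragments at the same start and end in both. The 5 on the 28S side were lower in PRSS35 as well. The locus on chromosome 5 had 21121 and 7234 FPKM from 1084 and 669 fragments, and that on chromosome 11, in an intron of DLG2, had 19594 and 9275 from 118 and 59.9.

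The 3 longer rRNA-like loci had lower FPKM and many fragments. In an intron of SLCO5A1 on chromosome 8, FPKM was 2518 in EV and 2033 in PRSS35 from 1265 and 1022 fragments. At chrX:108297349-108297572 it was 1795 and 1368 from 439.9 and 348, and at chr1:91852780-91853149, in an intron of HFM1, it was 1062 and 821 from 3325 and 2526. All 6 had bounds that lay apart. The fragments of PRSS35 were 0.774 of EV over the 3 loci above 200 bases and 0.628 over the 3 shorter ones, and in FPKM the shares were 0.785 and 0.585.

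Other structured RNAs were few. The locus chr6:52860426-52860733 covers RN7SK, the RNA that holds the elongation factor P-TEFb inactive, and had 68.4 FPKM in EV and 84.0 in PRSS35, from 106 and 130.0 fragments with overlapping bounds. The locus chr14:50329170-50329568 holds RN7SL2, a 7SL RNA gene, and had 89.99 and 46.8 FPKM from 353 and 224 fragments, with the bounds apart. The locus chr17:19091338-19091832 covers SNORD3A, the U3 snoRNA needed for rRNA processing, and had 12.6 FPKM in EV. In PRSS35 it met a longer unnamed locus. At chr1:564464-564862, the pseudogene MTND1P23 is 99.4% identical to the mitochondrial gene MT-ND1, a subunit of respiratory complex I. It had 1325 FPKM in EV and 1111 in PRSS35 from 5206 and 4268 fragments.

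Loci that matched an mRNA of a gene elsewhere, at 95% identity or more over at least 90% of the locus and not Alu-like, numbered 36 in EV and 33 in PRSS35. Splice junctions were not looked for, so not all need be copies of a spliced mRNA. Loci in introns of KAZN and COL4A1 in EV, for example, both matched MFN1. The 36 and 33 loci held 13.5% and 4.97% of the summed FPKM of the short unnamed loci, and 2.07% and 2.98% of their fragments. In EV, 167395 of their 216318 FPKM came from the RPS18P5 locus alone, on 31 fragments. It had no counterpart among the short unnamed loci of PRSS35, where the sum was 33353 FPKM. The EIF4HP1 locus, whose sequence is given above, had 30846.5 FPKM in EV and 23977 in PRSS35, with the bounds apart, yet its fragments were 268 and 295. Its length was 165 and 167 bases. RPS2P5, a pseudogene of the ribosomal protein gene RPS2, had 123 and 188 FPKM from 144 and 205 fragments at chr12:118683955-118684244, with PRSS35 higher and the bounds apart.

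Most of the loci lay in introns or outside genes of GENCODE release 44 as mapped to GRCh37. In EV, 402 (34.3%) were in introns, 311 (26.5%) outside genes, 251 (21.4%) met an exon of a protein-coding gene, 158 (13.5%) an exon of a lncRNA gene and 42 (3.58%) a pseudogene. In PRSS35 the numbers were 211 (28.7%), 166 (22.6%), 193 (26.3%), 131 (17.8%) and 30 (4.08%). An exon of any kind was met by 39.2% of the loci in EV and 48.7% in PRSS35, and by 41.7% of those assembled in both. Of those at protein-coding exons, 147 in EV and 102 in PRSS35 touched an untranslated region and no coding sequence, and 40 and 36 touched coding sequence.

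Introns held the sum. In PRSS35, 87.5% of the summed FPKM of the short unnamed loci came from introns, of which the copy of BC200 RNA on chromosome 22 was the largest part. In EV, introns held 51.1%, loci outside genes 30.2% and pseudogenes 17.0%. Protein-coding exons held 0.846% and 1.56%, with medians of 6.94 and 7.97 FPKM. Of the loci, 40.8% in EV and 40.4% in PRSS35 lay within the span of a named locus of the same table. For each of these short loci the highest named locus over it was taken, with a median of 3.59 FPKM in EV and 5.47 in PRSS35. All named loci had medians of 0.157 and 0.169. A host could count more than once and the highest was always taken, so the medians are not like for like.

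Chromosomes 1, 17 and 2 held the most loci in EV, with 122, 100 and 74, and chromosomes 1, 19 and 17 in PRSS35, with 75, 63 and 52. Per megabase, chromosomes 17 and 19 stood highest in EV, at 1.23 and 1.22, and chromosome 19 in PRSS35, at 1.07. Chromosome 19 also had the most named loci per megabase. By FPKM the order was another, and chromosome 22, with 30 loci in EV and 25 in PRSS35, held 36.0% and 67.5% of the summed FPKM of the short unnamed loci.

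Alu sequence was frequent in these loci. A stretch of at least 60 bases with 80% identity or more to 7SL or BC200 RNA was present in 429 of 1173 loci in EV (36.6%) and 208 of 735 in PRSS35 (28.3%), against 12.3% of 116305 windows of 300 bases over chromosome 22. In the central 300 bases of longer unnamed loci it was present in 11.8% and 12.04%. Among short unnamed loci outside genes the share was 54.0% in EV and 48.8% in PRSS35, in introns 48.3% and 38.9%, and at protein-coding exons 14.3% and 12.4%. In loci of 250 to 350 bases it was 52.1% and 40.7%. Median GC content was 54.7% and 55.1%, against 48.0% in the windows of chromosome 22.

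Of the short unnamed loci, 288 were assembled in both libraries, which is 24.6% of those in EV and 39.2% of those in PRSS35. Another 349 of EV met a named locus of PRSS35, 158 met an unnamed locus over 500 bases, and 378 (32.2%) met nothing. From PRSS35, 187 met a named locus of EV, 107 a longer unnamed one, and 153 (20.8%) nothing. Loci with a partner had a median of 24.3 implied fragments in EV and 20 in PRSS35, and those that met nothing 11.9 in both. The 11.9 is near the recurring low value of 9.59. Whether loci that met nothing lacked reads in the other library, or had too few to be listed, was not tested. The pairs held 55.7% of the summed FPKM of the short unnamed loci in EV and 97.4% in PRSS35. Of the loci without such a partner in PRSS35, the highest were chr6:107197506-107197668 in LINC02532 with 2865 FPKM, chr6:10829235-10829395 at an exon of TMEM14B with 2429, and chr8:21952139-21952298 at an exon of FHIP2B with 2035, from 22, 14 and 9.59 fragments. Each met a named locus of EV.

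Paired loci were more often lower in PRSS35 than higher. On the scale of log2(FPKM + 1), PRSS35 minus EV had a median of -0.20, with 119 pairs above 0 and 169 below, against a median of 0.06 over all 11315 matched loci with a mean of 1 FPKM or more and -0.02 over longer unnamed loci. At 2-fold, 21 of the 288 pairs were higher in PRSS35 and 58 lower (7.29% and 20.1%), where over all matched loci 2% were higher and 2.52% lower, and over longer unnamed loci 1.45% and 4.59%. The deposited bounds lay apart in 76 pairs, 16 higher and 60 lower, against 23.1% and 14.3% of all matched loci. The direction rests on the scale. With FPKM divided by the sum over all loci, which these same loci dominate, the median over all matched loci moved to 0.68 and that of the 288 pairs to 0.45, still below it, with 71 pairs higher and 21 lower.

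The ends of the assembled loci moved together with these differences. Only 7 pairs had the same start and end, and the lengths differed by a median of 21.5 bases. All 21 pairs that were higher in PRSS35 by 2-fold were shorter there, and 44 of the 58 lower ones were longer there, while among all pairs 148 were shorter and 128 longer. Where the PRSS35 locus was over 50 bases longer (43 pairs), the median log2 difference was -1.27 in FPKM and 0.09 in implied fragments. Where it was over 50 bases shorter (46 pairs), the medians were 0.69 and -0.54. Counted in fragments, 4 of the 288 pairs were higher by 2-fold and 42 lower, with a median log2 difference of -0.24. In implied fragments, 4.9% of the 11135 matched loci of every kind with a mean of at least 1 FPKM were higher by 2-fold and 4.39% lower, with a median of 0.05. Most of these loci were named, and at a named locus implied fragments need not track FPKM. At APOB, with the same start and end in both, FPKM was 18.0336 in EV and 20.6805 in PRSS35. Its implied fragments were 1350 and 8701. The shares over loci of every kind are therefore not counts of fragments, and the pairs cannot be weighed against them. Among the 1582 matched unnamed loci of over 500 bases the shares higher and lower were 12% and 8.6%, with a median of 0.11. This set had no limit on FPKM, whereas the FPKM shares of longer unnamed loci above came from the 894 with a mean of at least 1.

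Single loci show both cases. At chr16:29819366-29819547, at an exon of MAZ, a zinc finger transcription factor gene, FPKM was 731 in EV and 32.6 in PRSS35, a log2 difference of -4.45, yet the fragments were 28.0 and 30.0 and the lengths 182 and 277 bases. At chr11:76152421-76152683, in the lncRNA gene EMSY-DT, FPKM was 84.5 and 12.3 with 57.3 and 66.1 fragments over 263 and 454 bases. The locus chr19:57949466-57949767, at exons of the zinc finger gene ZNF749 and an overlapping gene, had 36.7 and 7.60 FPKM with 51.9 fragments in both over 302 and 496 bases. At chr1:16116529-16116829, outside genes, FPKM was 48.7 and 13.5 with 66.1 and 63.5 fragments over 301 and 432 bases. In all 4 the bounds lay apart in FPKM, while the fragments of PRSS35 stood at 0.960 to 1.15 of those in EV.

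In 2 loci, chosen after their values had been seen, FPKM was higher in PRSS35 and the fragments were not. At chr11:82400570-82400935, in the ribosomal protein pseudogene RPS28P7, FPKM was 15.6 in EV and 221 in PRSS35 from 46.7 and 43.4 fragments over 366 and 216 bases. At chr2:183514216-183514501, outside genes, FPKM was 39.3 and 1079 from 42.4 and 11.9 fragments over 286 and 166 bases. The bounds lay apart in FPKM at both. FPKM and fragments were both higher in PRSS35 at chr19:56826031-56826227, at an exon of the zinc finger gene ZSCAN5A, with 173 FPKM in EV and 641 in PRSS35 from 14.7 and 26.9 fragments over 197 and 182 bases. At LINC01524 on chromosome 20, chr20:50851297-50851473, FPKM was 589 and 1043 with overlapping bounds, from 15.1 and 21.0 fragments over 177 and 172 bases.

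With at least 50 implied fragments in each library there were 46 pairs. None was higher in PRSS35 by 2-fold, 12 were lower, and 35 were below 0, with a median of -0.38 in FPKM and -0.32 in fragments. The share over other loci at this depth was not taken, so these counts cannot be called particular to the short unnamed loci. The log2 difference of the highest of the 46 pairs was 0.99. That locus, chr6:34664821-34665246, in the lncRNA gene ILRUN-AS1, had 23.3 FPKM in EV and 47.3 in PRSS35 from 111 and 101 fragments. It was 426 bases long in EV and 496 in PRSS35, yet 1 fragment was worth 0.210 and 0.467 FPKM. The locus chr17:41651383-41651877, in an intron of DHX8 and ETV4, had 11.2 and 17.2 FPKM from 76.2 and 112 fragments. The locus chr3:10067662-10068037, which met a lncRNA gene in EV and an exon of FANCD2 in PRSS35, had 26.6 and 38.6 from 82.8 and 85.1. The bounds lay apart at the first 2 and overlapped at the last. At chrX:10557624-10557997, which meets an untranslated region of the ubiquitin ligase gene MID1, the length was 374 bases in both, and 167 FPKM in EV stood against 216 in PRSS35 from 533 and 683 fragments, with the bounds apart.

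Differences also remained where the lengths were nearly alike. In 99 pairs whose lengths differed by 10 bases or less, none was higher in PRSS35 by 2-fold and 21 were lower in FPKM, and 16 were lower in fragments. None of these 21 met an annotated exon. The 31 pairs at exons had a median of -0.08 in FPKM and 0.06 in fragments, and 17 were below 0 in FPKM. The 68 in introns or outside genes had medians of -0.57 and -0.67, and 53 were below 0. Of these, the 42 Alu-like pairs had medians of -0.63 and -0.76, with 36 below 0 and 16 lower by 2-fold, and the 26 others had -0.34 and -0.41, with 17 below 0 and 5 lower by 2-fold. The division by place and sequence was chosen after the values had been seen, and 1 library per line gives no test of it. For the 99 pairs, too, no share over other loci of like length was taken.

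The Alu-like locus chr1:150849458-150849754, outside annotated genes, was among the deepest of these, with 196 FPKM (171 to 221) in EV and 59.4 (45.1 to 73.7) in PRSS35 from 251 and 68.7 fragments over 297 and 292 bases. Another, in an intron of the transcription factor gene NFIA at chr1:61523234-61523588 and chosen after its values were seen, had 1041 FPKM in EV and 409 in PRSS35 from 2830 and 1014 fragments over 355 and 349 bases. In an intron of the phosphatase gene PTPN9, chr15:75867354-75867610, chosen likewise, had 698 and 314 FPKM from 421 and 168 fragments over 257 and 252 bases. At all 3 PRSS35 was lower in FPKM and in fragments alike.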

How the data were processed

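The samples were PLC cells carrying the empty vector (EV) and PLC cells stably expressing PRSS35, each with 1 RNA-seq library. The authors made the libraries with a NEBNext Ultra kit, sequenced them on a HiSeq2500, used TopHat2 for alignment to hg19, and ran Cufflinks; the submitters' processing notes list TopHat2 2.1.0 and Cuffdiff 2.2.1. The annotation release and Cufflinks options are not given in the sources used here. The deposited values are FPKM per locus with lower and upper FPKM bounds, which the authors' software scaled by a transcript length and by mapped fragments. How that length was set is not given in the sources used here. Neither counts nor a count model were used.

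The loci, lists and families were chosen with earlier results of these data known. Loci were paired between the tables when each shared most bases with the other (1 base or more). Differences are log2 ratios after 1 FPKM was added to both values, called at 2-fold. Implied fragments were obtained by dividing 2 times the FPKM by the gap between upper bound and FPKM and squaring the result, and depth was estimated from their relation to length in unnamed loci of over 500 and under 3000 bases; both cover counting error only. Positions, given from 1, were compared with GENCODE release 44 on GRCh37 on either strand, and sequences with annotated transcripts by blastn 2.17.0 (family: 90% identity over 60% of the locus). The code for pairing and implied fragments was run on simulated loci. These were built with the same formula and kept their lengths, so the run could not show whether either measure holds for the real loci. Python 3.11.15, pandas 2.3.3 and Biopython 1.88 were used.

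The loci named are the 10 pairs with the highest mean FPKM, the 5 with the largest log2 ratio each way among pairs with 50 implied fragments or more in both libraries, the 3 highest loci without a partner per library, and the 2 highest pairs per annotation class; not every one is described, and 1 locus and some sequences are not reported here. Loci like BC200 RNA, ribosomal RNA, mRNAs and other structured RNAs were named after their sequences had been compared. Alternatives were other length limits, overlaps, pseudocounts, scalings, thresholds, a filter on low values, and stricter exon overlap. Implied fragments in place of FPKM, pairs of like length and leaving out loci of 200 bases or less were added after the data had been seen.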

Additional observations from a re-analysis of the deposited data

How the results depend on the processing

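No paired analysis was possible because each line has 1 library, and no replicate could be left out. With a limit of 300 bases the loci numbered 430 in EV and 256 in PRSS35, with 1000 bases 2772 and 2138. The share of summed FPKM was 20.7% in PRSS35 without its highest locus, and 4.22% and 2.54% in EV and PRSS35 without loci of 200 bases or less. Requiring 90% overlap left 161 pairs, 1 higher and 25 lower by 2-fold. Dividing FPKM by the sum over all loci turned the median log2 ratio to 0.45, with 71 pairs higher and 21 lower, because short unnamed loci set that sum. The 300-base limit gave -0.32, 7 and 28, the 12 pairs of the same length -0.34, 0 and 1, and lengths within 10 bases -0.32, 0 and 21. At 1.5-fold 45 pairs were higher and 98 lower, and in implied fragments 4 were higher. Pseudocounts, the filter on low values, the sum of named loci and exon overlap moved no value by over 1.5 times, apart from what is given here. Depth limits most loci, since the median rests on 14.0 implied fragments.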
